A study of Mus musculus with 23 samples.

Results

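Lysosome genes and the transcription factors that control them were examined in assay for transposase-accessible chromatin (ATAC-seq) data from mouse monocytes and macrophages. The set holds 46 genes: 6 lysosomal membrane proteins, 12 proteases, 8 glycosidases, 5 enzymes of heparan sulfate breakdown, 7 genes of lipid handling, 4 subunits of the proton pump, the 3 regulators Tfeb, Tfe3 and Mitf, and the sorting enzyme gene Gnptab. Peaks of all libraries were merged into 155137 regions, and 497 of these lay within 50 kb of a gene of the set and closer to its body than to any other protein-coding gene. The genes were listed by name, and regions were assigned to them by position.

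The series concerns how monocytes replace Kupffer cells, the macrophages resident in the liver, and the signals that act on them there. Blood Ly6C-high monocytes came from untreated C57BL/6J mice (2 libraries). Repopulating liver macrophages (RLM) came from Clec4f-cre/Rosa26iDTR mice 24 h (3 libraries) or 48 h (2 libraries) after diphtheria toxin, which removes cells that carry the toxin receptor, here those in which the Kupffer cell gene Clec4f has been active. Kupffer cells of the same strain were given PBS (2 libraries). The strain label gives the Cre and receptor alleles for both RLM groups and the PBS group but not for the blood monocytes. Untreated Kupffer cells sorted by the surface protein TIM4 came from Nr1h3 flox/flox mice without Cre (TIM4+ controls, 2 libraries) and from Nr1h3 flox/flox Clec4f-cre +/- mice (TIM4- knockouts and TIM4+ knockouts, 2 libraries each). No TIM4- control was analysed here. Untreated Kupffer cells titled Smad4 knockout (2 libraries) carry the strain label Smad4 flox/flox, and those titled control (2 libraries) carry Smad4 flox/flox Clec4f-cre +/-, so titles and strain labels disagree. The titles are followed here as "titled knockout" and "titled control", and if the strain labels are the correct ones every direction in that comparison turns. Bone-marrow-derived macrophages (BMDM) of C57BL/6J mice were cultured for 4 days and left untreated (2 libraries) or given the Notch ligand DLL4 for 24 h (2 libraries). Titles of the monocyte, RLM and PBS libraries carry mouse numbers. For the other libraries nothing says that replicates came from separate animals or cultures, so p-values there measure only the spread between these libraries.

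The lysosome is the acidic compartment in which macrophages digest what they engulf. A proton pump, the vacuolar ATPase, keeps its lumen acidic, membrane glycoproteins line it, and soluble hydrolases break down protein, sugar chains and lipid. Many of these enzymes reach it through a mannose 6-phosphate tag, which the enzyme encoded by Gnptab begins to build. TFEB, TFE3 and MITF are related basic helix-loop-helix factors that bind the letters TCACGTG in promoters of lysosome genes. Kupffer cells use the compartment to digest aged red cells, microbes and lipoproteins.

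Promoter sequences came from RefSeq (GRCm38.p6) and were matched for 40 of the 46 genes. Both strands were searched from 250 bases before to 50 bases after each annotated start. The letters TCACGTG occurred in 11 of 50 promoters of the set (22%) and in 3.77% of the 32851 promoters in the table. The longer palindrome TCACGTGA, which contains it, occurred in 5 of 50 (10.0%, against 0.974% of all promoters), and the shorter core CACGTG in 13 of 50 (26.0%, against 7.15%). The letters GAGGAAGT, a motif of the myeloid factor PU.1, occurred in 4 of 50 (8.0%, against 3.2%), and TGANTCA, a motif of AP-1, in 5 of 50 (10.0%, against 7.81%). A match is a description of these letters and not evidence of binding. The 5 promoters below were taken from those that hold TCACGTG and whose start-site region passed in a comparison described further on. Gaa passed only in TIM4+ knockouts against controls. Changed start sites without these letters, such as those of Lipa, Mitf and Gnptab, are not printed. Each sequence is the 250 bases before the start in the direction of transcription. Capitals mark TCACGTG in Naglu and Gaa and TCACGTGA in Mcoln1, Gla (2 copies) and Ctsd. Mcoln1 also holds a further TCACGTG, and Ctsd a further CACGTGA, the same letters on the other strand. Both are left in small letters. The first base of the capitals lies 74, 141, 46, 228 and 99 bases before the start in Naglu, Gaa, Mcoln1, Gla and Ctsd, respectively. They lie at chr11:101069844-101070093 (+), chr11:119267713-119267962 (+), chr8:3500269-3500518 (+), chrX:134601006-134601255 (-) and chr7:142387828-142388077 (-).
Naglu: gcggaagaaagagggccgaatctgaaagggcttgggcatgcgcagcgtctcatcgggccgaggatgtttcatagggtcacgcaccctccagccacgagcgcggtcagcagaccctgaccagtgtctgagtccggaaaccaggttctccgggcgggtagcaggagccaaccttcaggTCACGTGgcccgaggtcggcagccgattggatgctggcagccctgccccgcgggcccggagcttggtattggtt
Gaa: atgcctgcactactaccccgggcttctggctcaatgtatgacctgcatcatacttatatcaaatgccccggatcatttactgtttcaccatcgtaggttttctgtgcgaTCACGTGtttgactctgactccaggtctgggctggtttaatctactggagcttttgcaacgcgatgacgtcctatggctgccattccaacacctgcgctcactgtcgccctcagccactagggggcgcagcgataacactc
Mcoln1: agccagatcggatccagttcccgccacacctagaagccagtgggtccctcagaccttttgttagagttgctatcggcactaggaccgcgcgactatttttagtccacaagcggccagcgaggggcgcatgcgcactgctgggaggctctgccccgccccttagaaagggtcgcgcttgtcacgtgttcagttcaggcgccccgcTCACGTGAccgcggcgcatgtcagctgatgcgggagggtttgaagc
Gla: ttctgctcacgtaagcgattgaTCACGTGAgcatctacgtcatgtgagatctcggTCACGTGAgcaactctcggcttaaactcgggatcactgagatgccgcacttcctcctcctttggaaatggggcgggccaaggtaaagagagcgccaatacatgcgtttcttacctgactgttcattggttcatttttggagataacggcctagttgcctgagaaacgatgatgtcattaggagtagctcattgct
Ctsd: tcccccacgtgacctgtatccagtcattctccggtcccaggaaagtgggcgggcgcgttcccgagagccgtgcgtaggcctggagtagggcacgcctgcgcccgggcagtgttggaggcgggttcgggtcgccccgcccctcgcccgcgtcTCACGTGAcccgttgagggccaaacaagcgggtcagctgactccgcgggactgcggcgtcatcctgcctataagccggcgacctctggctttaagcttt

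Depth ran from 10.4 to 18.4 M tags per library, and 15.4% to 54.7% of tags lay in peaks, so libraries of equal depth could yield lists of different length (48775 to 104206 peaks). Replicates of a group correlated at 0.928 to 0.970 (Pearson, log2 values of shared regions). The values are HOMER's normalized tag counts, which scale each library to 10 M tags. Start sites of 8 hepatocyte and 8 stellate cell marker genes had no peak in any library. Those of 8 monocyte markers had 4 peaks in each blood library, 2 at 24 h and at 48 h, and none in PBS Kupffer cells or in TIM4+ cells of the Nr1h3 mice. Those of 10 Kupffer cell markers had 2 to 3 peaks in blood, 3 at 24 h, 4 to 5 at 48 h and 8 to 9 in PBS Kupffer cells. BMDM had 6 to 7 of these peaks and 4 to 5 of the monocyte ones. Summed signal of the Kupffer cell markers was 511.1 to 574.4 at 48 h and 463.6 to 548.3 in PBS Kupffer cells. Of 6 macrophage markers, 2 to 3 had a start-site peak in blood and 3 in every library of the other groups. Those with no start-site peak in any library were Adgre1, Cd14 and Csf1r. A library had peaks at up to 3 of 7 T and NK cell, 2 of 8 liver endothelial, 2 of 6 dendritic and 1 of 6 B cell markers. Neutrophil markers had 7 to 8 of 8 start sites with a peak in BMDM and 1 to 4 elsewhere. No region at Nr1h3 (3 tested) or Smad4 (2 tested) passed the test in its own comparison, and since a deletion need not close the surrounding chromatin, this checks no label.

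Lysosome gene regions were called more widely than regions in general. Of the 497, 130 (26.2%) were called in all 23 libraries, against 17.2% of all regions. In 1 library alone 64 of the 497 were called, against 25972 of all 155137. Only 88.7% of all regions had a gene within 50 kb, as every region of the set has by rule, so the backgrounds differ in this. By position, 34 of 45 start-site regions (75.6%) were called everywhere, against 68.1% of all start-site regions. The share was 19.1% of the 304 gene-body regions and 25.7% of the 148 regions outside the gene. For these 2 places no share over all regions was computed. Ctsb, Ctsh, Hgsnat, Npc1, Atp6v0d2 and Atp6v1h had no matched promoter, so none of their regions could count as a start site. Regions at an end of these genes count as gene body or outside the gene, here and below. Examples are chr18:12236276-12236576 at Npc1 and chr8:25976600-25976884 at Hgsnat. A gene of the set had a median of 7 regions, against 5 over all genes with a region. Mitf (46 regions), the cathepsin C gene Ctsc (39), Gnptab (24), the saposin precursor gene Psap (23) and Tfeb (23) had the most. Ctsa, Cd68, Ctsf, Idua and Naglu had the fewest, 2 each.

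**Figure D1:**
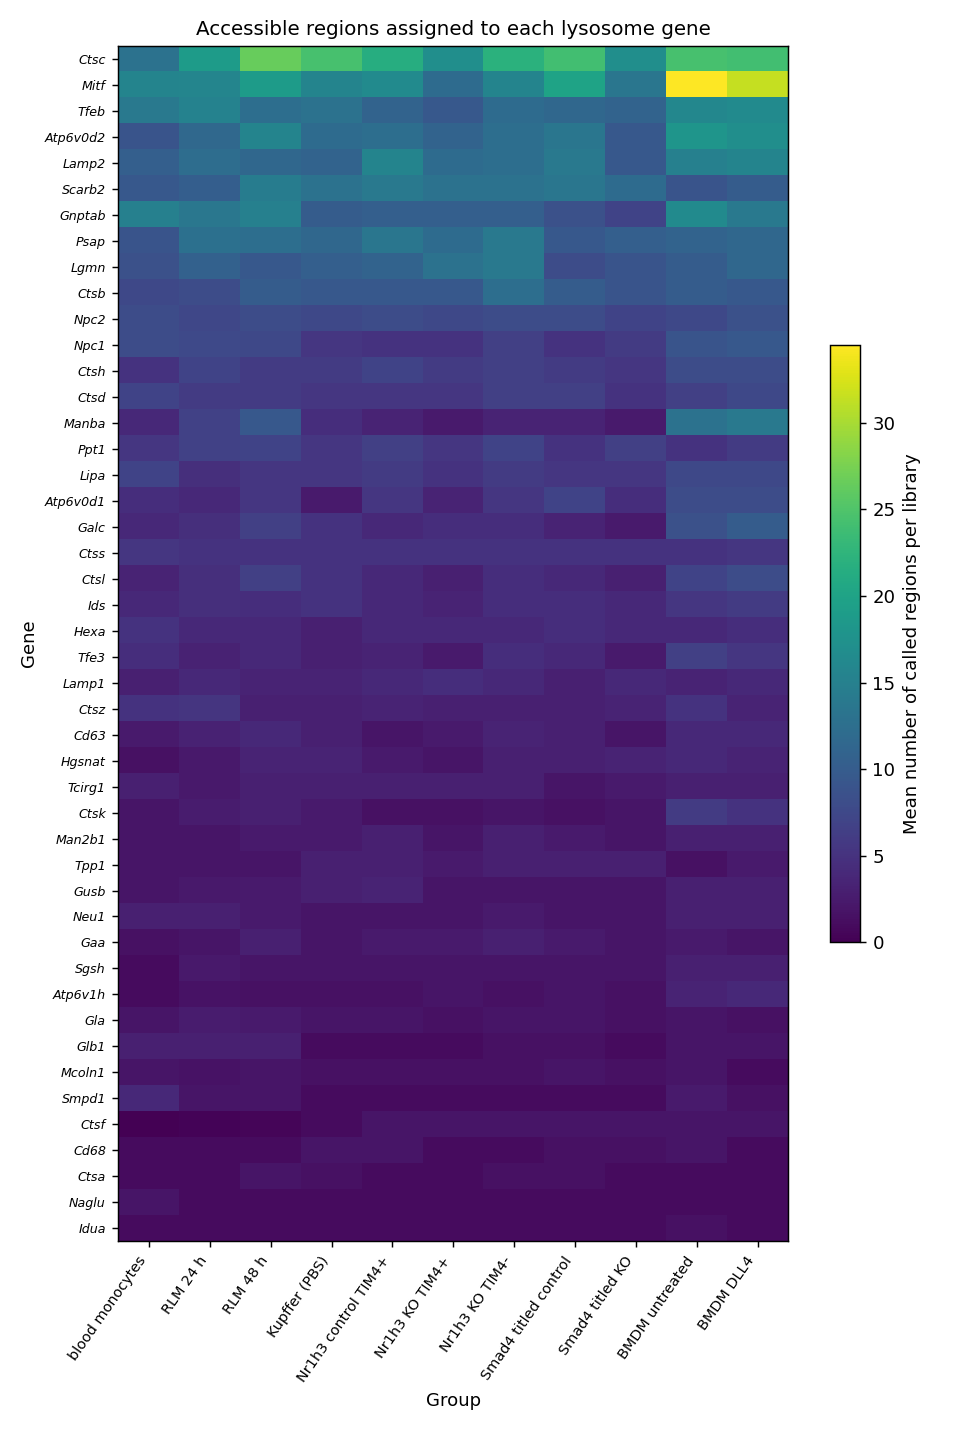
Mean number of called regions per library for each of the 46 genes (rows) in each of the 11 groups (columns), as colour. Mitf and Ctsc stand at the top, and the Mitf row is brightest in the BMDM groups.

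The number of lysosome gene regions per library was 232.5 ± 20.5 (SD, n = 2) in blood monocytes, 254.7 ± 9.71 (n = 3) in RLM at 24 h, 283.0 ± 15.6 (n = 2) at 48 h and 245.5 ± 19.1 (n = 2) in PBS Kupffer cells. The Nr1h3 groups had 253.5 ± 16.3 in controls, 263.0 ± 4.24 in TIM4- knockouts and 225.0 ± 9.9 in TIM4+ knockouts, and BMDM had 326.5 ± 14.8 untreated and 325.0 ± 14.1 with DLL4 (n = 2 each). Titled Smad4 knockouts had 215.0 ± 24.0 and titled controls 249.5 ± 13.4 (n = 2 each). As a share of all regions of a library this was 0.341% in blood, 0.386% at 24 h, 0.361% at 48 h and 0.39% in PBS Kupffer cells. Nr1h3 controls had 0.416%, TIM4- knockouts 0.389% and TIM4+ knockouts 0.445%. Titled Smad4 knockouts had 0.409% and titled controls 0.396%. In BMDM the share was 0.351% untreated and 0.346% with DLL4. With every list shortened to its 48720 strongest peaks, the numbers of regions drew together, from 189.5 ± 12.0 in blood to 225.0 ± 11.3 in untreated BMDM. The wide lead of BMDM thus came with its longer peak lists. At that length 48 h RLM had 211.0 ± 4.24, PBS Kupffer cells 217.0 ± 9.9 and 24 h RLM 215.0 ± 2.65.

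Single genes differed more. Mitf ranged from 10 regions called in every library of the group in TIM4+ knockouts to 29 in untreated BMDM. Ctsc ranged from 11 in blood to 23 with DLL4, Manba (beta-mannosidase) from 2 to 13, Atp6v0d2 (a macrophage-rich subunit of the proton pump) from 8 in blood to 17 in both BMDM groups, and Gnptab from 6 in titled Smad4 knockouts to 15 in untreated BMDM. The cathepsin S gene Ctss, by contrast, had 5 such regions in every group. These counts come from peak lists of full length. Libraries held a mean of 93727 regions in untreated BMDM, 93911.5 with DLL4 and 50599 in TIM4+ knockouts. The part of list length in the ranges of single genes was not tested. Ctsf (cathepsin F) was the only gene of the set with no region called in every library of blood monocytes or of either RLM group. Its start-site region at chr19:4855007-4855297 had no peak in blood, a peak in 1 of 3 libraries at 24 h (10.3 normalized tags) and in 1 of 2 at 48 h (14.8). It measured 27.5 and 31.6 in PBS Kupffer cells, 52.6 and 19.1 in Nr1h3 controls and 47.3 and 35.9 in untreated BMDM. A missing peak here means a signal below the caller's threshold, not closed chromatin.

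The first comparison asks what changes as monocytes enter a liver emptied of Kupffer cells. Between blood monocytes and RLM at 24 h, 22 of 46 protease regions tested rose, 0 fell and 24 did not pass, while 16.7% of all regions rose. Their median log2 fold change was 0.53, against 0.09 over all regions tested. Protease rises numbered 11 to 23 when 1 library was left out and 7 without centring, with 0 falls in each. All 5 tested regions at Ctsd (cathepsin D, an aspartic protease) rose, as did 4 of 5 at Ctsb, 4 of 11 at Ctsc and 3 of 6 at Lgmn (legumain, which matures other cathepsins). At Tfeb 3 of 12 regions fell and at Mitf 1 of 11. Monocyte markers with a start-site peak went from 4 of 8 to 2 of 8 over the same step, and the part of this in the changes was not tested. A region was tested where all libraries of both groups had a peak, on log2 of the normalized tag count plus 1, each library centred on its median, and limma with Benjamini-Hochberg adjustment over all such regions, so that changes are relative to the median region. Between 158 and 269 of the 497 regions met that condition in a comparison, and a region without a peak in 1 library was not tested. In bulk libraries a change in each cell and a change in the mix of cells cannot be told apart.

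Over the set 55 of 174 regions passed (31.6%), against 26.0% of all 45317 regions tested. Of these, 46 rose (26.4%, against 16.7%) and 9 fell (5.17%, against 9.33%). The median over the set was 0.25. By role, 7 of 20 membrane regions rose and 1 fell, 7 of 36 lipid regions rose and 1 fell, and 3 of 12 pump regions rose. Of 19 glycosidase regions 3 rose and 2 fell, and of 8 heparan sulfate regions 2 rose. Among 25 regulator regions 1 rose and 4 fell. The plot of change by role shows the protease points shifted upward as a group.

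The widest change was at Ctsb, which encodes the cysteine protease cathepsin B. A region outside the gene at chr14:63103027-63103344, 19118 bp away from its body, measured 26.0 and 29.6 normalized tags in blood and 146.0, 110.8 and 72.1 at 24 h. The groups did not overlap, and the log2 fold change was 2.15 ± 0.25 (SE, adjusted p = 2.49e-07).

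Ctsc encodes dipeptidyl peptidase 1, which activates serine proteases of granules. A region 6.4 kb upstream, chr7:88271505-88271843, rose from 29.3 and 38.1 in blood to 110.5, 99.9 and 54.1 at 24 h, a log2 fold change of 1.57 ± 0.26 (adjusted p = 3.77e-05). At Ctsd a region 16 kb upstream, chr7:142403607-142404009, rose from 46.4 and 55 to 110.5, 118.0 and 118.6 (log2 fold change 1.44 ± 0.20, adjusted p = 4.27e-06). Every 24 h library lay above every blood library in both.

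Lipid and pump genes each held a rise among the 8 genes with the largest called changes. In the gene body of Npc2, whose product carries cholesterol out of the lysosome together with NPC1, the region chr12:84761321-84761644 measured 21.2 and 31.7 in blood and 62.7, 50.8 and 55 at 24 h (log2 fold change 1.35 ± 0.27, adjusted p = 0.00046). In the body of Atp6v0d2 a region at chr4:19895168-19895496 measured 63.5 and 44.4 in blood and 135.7, 95.3 and 108.1 at 24 h (1.33 ± 0.23, adjusted p = 7.96e-05).

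**Figure D2:**
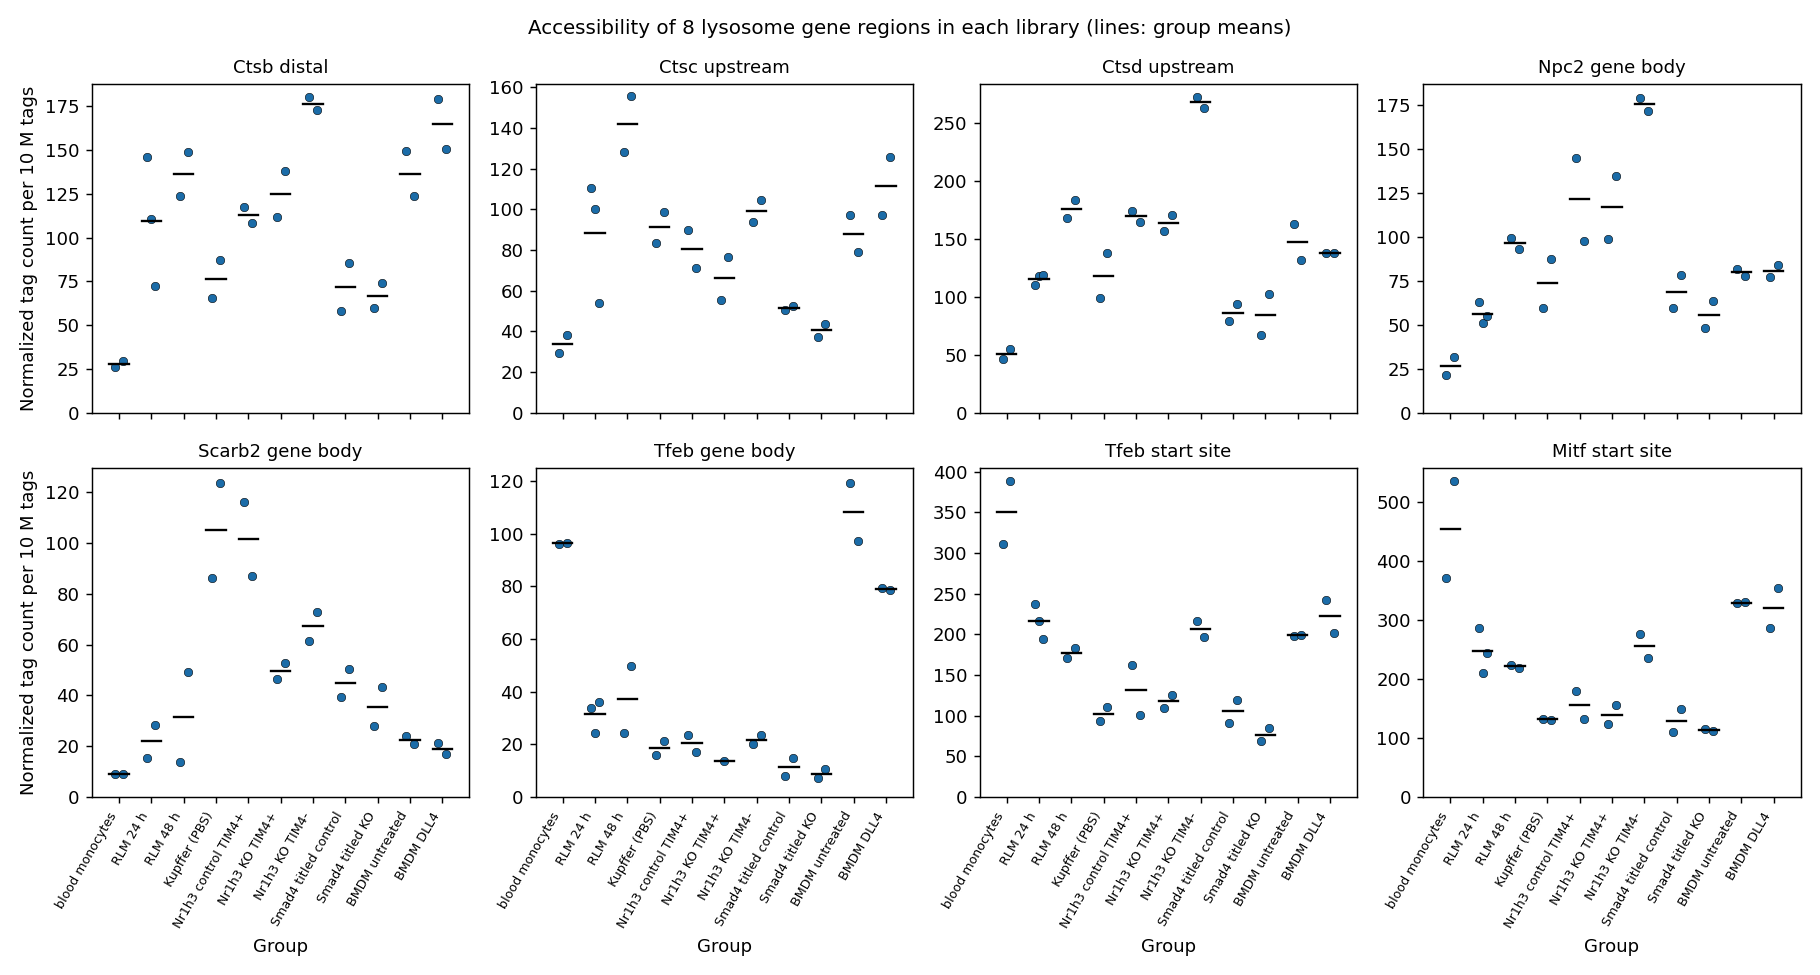
Normalized tag count per 10 M tags (vertical axis, from 0) of 8 regions in each library (points) of the 11 groups, with group means as lines and libraries without a peak left out. Group means in the upper row (Ctsb, Ctsc, Ctsd, Npc2) were lowest in blood monocytes, and in the lower row the Tfeb and Mitf regions fell from blood to Kupffer cells while the Scarb2 region rose.

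The 9 regions that fell lay at Hexa, Neu1, Psap, Scarb2, Gnptab and Mitf (1 each) and at Tfeb (3). A region next to Hexa, the alpha subunit of beta-hexosaminidase, measured 64.3 and 76.8 in blood and 27.1, 15.4 and 25.6 at 24 h (chr9:59565639-59565945; log2 fold change -1.36 ± 0.30, adjusted p = 0.00125). A region near the sialidase gene Neu1 went from 47.2 and 80.3 to 22.5, 11.8 and 33.2 (-1.26 ± 0.35, adjusted p = 0.00742), and this call was lost without 24 h replicate 2 or without blood replicate 2. The Tfeb region chr17:47784456-47784738 in its body dropped from 96.0 and 96.6 to 33.7, 24.5 and 36.0 (-1.34 ± 0.27, adjusted p = 0.000381). Both of its start-site regions that passed fell as well (-1.01, adjusted p = 0.000636, and -0.42, adjusted p = 0.0107). The Mitf start site measured 372.0 and 536.4 in blood and 287.4, 210.7 and 243.7 at 24 h (-0.60 ± 0.12, adjusted p = 0.000577), and the other 10 Mitf regions did not pass. Tfe3 went the other way at 1 of 2 regions, a gene-body region with 33.4 and 49.3 in blood and 75.8, 70.8 and 40.8 at 24 h (0.83 ± 0.27, adjusted p = 0.021).

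Start sites of the set followed those of the genome: 11 of 34 rose (32.4%, against 26.8% of all start-site regions) and 3 fell (8.82%, against 6.87%). The largest rise was at Naglu, an enzyme of heparan sulfate breakdown whose promoter is printed above, with 64.3 and 103.6 in blood and 150.7, 149.8 and 148.0 at 24 h (1.13 ± 0.18, adjusted p = 1.84e-05). The start sites of Mcoln1 (0.93), the lysosomal calcium channel gene, Ctsz (0.77), Gla (0.76), Tpp1 (0.72), Lipa (0.64), Ctsd (0.55), Ctsl (0.54), Cd68 (0.48), Gusb (0.46) and Scarb2 (0.42) also rose, with adjusted p from 2.76e-05 (Lipa) to 0.0206 (Cd68). Of the 14 start-site calls, those of Naglu, Mitf and 1 Tfeb region held under every alternative, 10 were lost under a scaling and 7 without a library. Of start-site regions of the set with TCACGTG, 4 of 7 rose, namely Naglu, Mcoln1, Gla and Ctsd, and of those without it 7 of 27 rose. Over the genome 203 of 504 start sites with these letters rose (40.3%), against 25.9% of those without. The other 3 start sites of the set with the letters did not pass, with log2 fold changes of -0.44 at Gaa, the acid alpha-glucosidase gene, 0.13 at Atp6v0d1 and -0.04 at Glb1.

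Of 327 regions with a peak in either group, 17 had one in all 24 h libraries and in no blood library (5.20%, against 3.02% of all regions) and 10 the reverse (3.06%, against 4.49%). Those at 24 h included 2 each at Ctsc, Lgmn, Manba and Atp6v0d2, and those in blood 2 each at Lipa, Smpd1 and Gnptab. With lists of equal length they numbered 19 and 5.

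The median region was 0.18 lower on the log2 scale at 24 h before centring, and without centring 13 regions rose and 10 fell, with proteases at 7 higher and 0 lower and membrane regions at 0 and 1. Quantile normalisation gave 33 and 12, and the count fell to 34 without blood replicate 1 and to 28 without blood replicate 2.

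**Figure D3:**
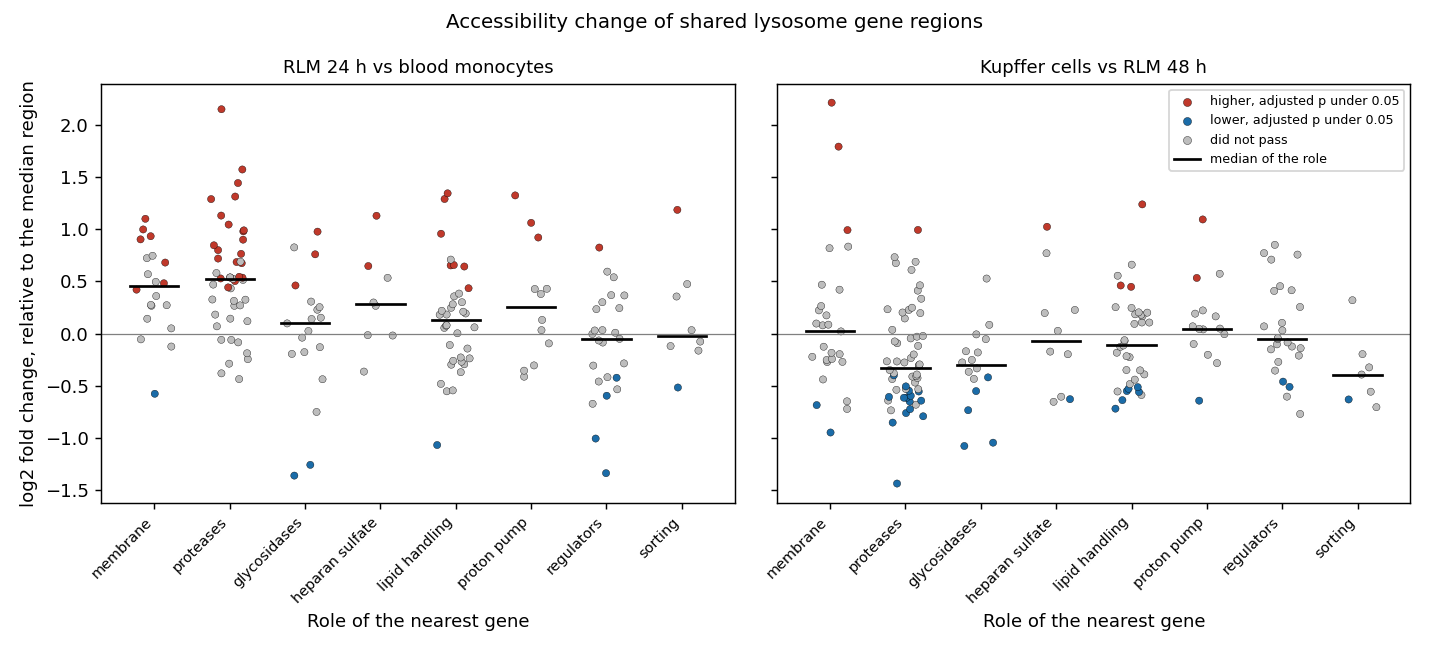
Log2 fold change relative to the median region (vertical axis) of each lysosome gene region tested, by role of its gene (horizontal axis), for RLM at 24 h against blood monocytes (left) and PBS Kupffer cells against RLM at 48 h (right). Colour marks the call and lines mark role medians, which for proteases were 0.53 on the left and -0.33 on the right.

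The second comparison asks what changes between 24 h and 48 h after depletion. Few lysosome gene regions did: 7 of 187 passed (3.74%, against 5.44% of all regions), 3 higher (1.6%, against 1.92%) and 4 lower (2.14%, against 3.53%), and the set's median was 0.02, against -0.08 over all regions. None of 50 protease regions, 24 membrane regions, 21 glycosidase regions, 9 heparan sulfate regions and 23 regulator regions passed. A region beside Atp6v0d2 at chr4:19942201-19942511 measured 29.0, 49.0 and 11.4 at 24 h and 71.5 and 96.8 at 48 h (log2 fold change 1.5 ± 0.36, adjusted p = 0.0158). The 48 h libraries lay above the 24 h ones there.

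Gnptab and lipid genes gave the falls. The Gnptab start site measured 353.9, 315.1 and 307.3 at 24 h and 231.0 and 223.7 at 48 h (-0.68 ± 0.13, adjusted p = 0.00278). A region 16.9 kb upstream of Psap, the precursor of the saposins that help degrade sphingolipids, went from 224.7, 225.2 and 200.1 to 144.7 and 163.6 (-0.65 ± 0.14, adjusted p = 0.00851). The start site of Lipa, the lysosomal acid lipase gene, fell by 0.48 (adjusted p = 0.0144) and a region in its body by 0.60 (adjusted p = 0.0417). Peaks found only at 48 h marked 16 of 353 regions (4.53%, against 5.09%), among them 3 each at Scarb2 and Ctsc and 2 at Manba. Only at 24 h there were 4 (1.13%, against 0.609%), 2 of them at Tfeb. With lists of equal length the numbers were 7 at 48 h and 6 at 24 h, so the excess at 48 h was not seen there.

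None of these calls held under every alternative. The count was 4 without 24 h replicate 2, 11 without 24 h replicate 3, 2 without 48 h replicate 1 and 0 without 48 h replicate 2, where the lone 48 h library is assumed to vary like the 24 h ones, and without centring 3 rose and 1 fell, with quantile normalisation 3 and 2.

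The third comparison sets resident Kupffer cells of PBS-treated mice against RLM at 48 h. Of 58 protease regions tested 1 rose and 15 fell, while 13.7% of all regions rose and 12.6% fell. Their median was -0.33, against -0.01 over all regions, and the falls numbered 4 to 19 when 1 library was left out. Falls lay at 4 of 8 regions of Lgmn, 3 of 5 of Ctsd, 3 of 6 of Ctsb and 3 of 17 of Ctsc. Glycosidases gave 0 rises and 5 falls among 16. The membrane gene Scarb2 had 3 rises and 0 falls among 11. Kupffer cell markers with a start-site peak went from 4 to 5 of 10 at 48 h to 8 to 9 of 10 in Kupffer cells.

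Over the set 43 of 193 regions passed (22.3%, against 26.4%). Of these 10 rose (5.18%, against 13.7%) and 33 fell (17.1%, against 12.6%), and the median was -0.17. Of 35 lipid regions 3 rose and 6 fell, of 15 pump regions 2 rose and 1 fell, and of 25 regulator regions 2 fell. Start sites fell at 10 of 37 (27.0%, against 18.2% of all start sites) and rose at 1 (2.7%, against 12.1%).

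Scarb2 encodes LIMP-2, the membrane receptor that brings glucocerebrosidase to the lysosome. A region in its body, 18.7 kb from the start at chr5:92486769-92487131, measured 13.9 and 49.1 at 48 h and 86.3 and 123.7 in Kupffer cells. The groups did not overlap, and the log2 fold change was 2.22 ± 0.29 (adjusted p = 2.29e-08). A neighbour at chr5:92488199-92488793 had no peak in any blood, 24 h or BMDM library, measured 10.5 and 16.9 at 48 h and 31.3 and 50.8 in Kupffer cells (1.79 ± 0.33, adjusted p = 3.78e-05). The region chr5:92465416-92465842 also rose, by 0.99, from 18.3 and 25.7 to 30.3 and 43.1. The Scarb2 start site did not pass, with 373.0 and 362.3 at 48 h and 251.2 and 304.8 in Kupffer cells. The 3 rises at Scarb2 all lay in the gene body.

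**Figure D4:**
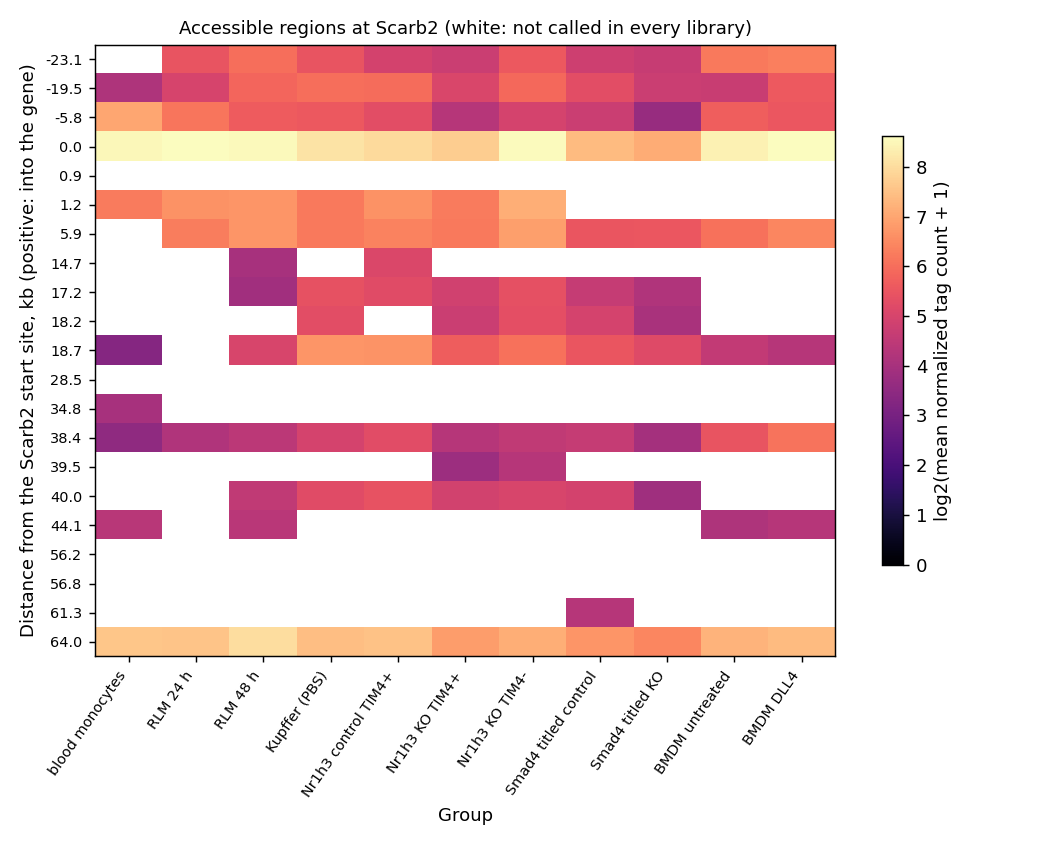
Mean accessibility, as log2(normalized tag count + 1) in colour, of the 21 regions at Scarb2 by distance from the start site in kb (rows) in the 11 groups (columns), white where a region was not called in every library of the group. The row at 18.7 kb is dark in blood and bright in PBS Kupffer cells and Nr1h3 controls, and the start site is bright in all groups.

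Other rises included those at Galc (galactosylceramidase; 13.1 and 6.6 at 48 h, 19 and 19.2 in Kupffer cells; 1.24, adjusted p = 0.00645), a region beside Atp6v0d2 (13.9 and 19.8 against 32.2 and 27.8; 1.10, adjusted p = 0.0109), Ids (15.7 and 27.1 against 33.2 and 37.4; 1.02, adjusted p = 0.0139) and a region 5.3 kb upstream of Ctsl (22.7 and 35.2 against 51.2 and 43.1; 0.99, adjusted p = 0.0088). The largest fall was downstream of Ctsk, the cathepsin K gene, at chr3:95511823-95512119, with 70.6 and 78.5 at 48 h and 22.7 and 21.1 in Kupffer cells (-1.44 ± 0.28, adjusted p = 6.78e-05). It lies between Ctsk and Ctss, so its assignment to Ctsk rests on distance alone. A region near Hexa fell from 58.4 and 62.3 to 21.8 and 24.0 (-1.08, adjusted p = 0.00334). One at Manba had 25.3 and 74.1 at 48 h and 16.1 and 17.3 in Kupffer cells (-1.05, adjusted p = 0.0181). In this last pair of groups the spread between the 48 h libraries was wider than their distance from Kupffer cells.

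The number of start-site falls was 10 and ranged from 1 to 11 when 1 library was left out, and of the 11 start-site calls that of Man2b1 alone held under every alternative. The start site of Man2b1, lysosomal alpha-mannosidase, measured 203.9 and 225.9 at 48 h and 90.0 and 123.7 in Kupffer cells (-0.73 ± 0.17, adjusted p = 0.000874). The start sites of Cd68 (-0.69), the pump subunit gene Tcirg1 (-0.64), Naglu (-0.63), Ctsd (-0.62), Lgmn (-0.62), Neu1 (-0.55), Tfeb (-0.51), Mitf (-0.46) and Ctsc (-0.40) fell too, with adjusted p from 0.00276 (Lgmn) to 0.0373 (Ctsc). The start site of Smpd1, acid sphingomyelinase, rose by 0.45 (adjusted p = 0.0439). Naglu, Ctsd and Cd68, whose start sites rose between blood and 24 h, are among those that fell. Of 8 start sites of the set with TCACGTG 0 rose and 2 fell, and of 29 without it 1 rose and 8 fell. Over the genome 10.4% of start sites with these letters rose, against 12.2% without. Of 339 regions 8 had peaks only in Kupffer cells (2.36%, against 4.53%). At 48 h alone there were 26 (7.67%, against 12.8%), among them 4 at Manba and 3 at Gnptab. With lists of equal length the balance turned, to 12 in Kupffer cells and 5 at 48 h.

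The median region was 0.30 lower in Kupffer cells before centring, and without centring 3 regions rose and 68 fell (proteases 0 and 28). Scarb2 at 18.7 kb, Ctsk, the Hexa region and the Man2b1 start site kept their calls under every alternative, while the count fell to 25 without Kupffer cell replicate 1, 12 without 48 h replicate 1 and 19 without 48 h replicate 2.

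The fourth comparison sets resident Kupffer cells of PBS-treated mice against blood monocytes. These Kupffer cells are not a later time point of the RLM. The libraries are those of the preceding comparisons, so the values are not independent of them. Pump regions rose at 5 of 11 and fell at 0 (median 0.56), heparan sulfate regions at 4 of 8 and 0, and proteases at 11 of 42 with 4 falls (median 0.28), while 25.7% of all regions rose and the median over all regions was 0.00. When 1 library was left out, pump rises numbered 3 to 5, heparan sulfate rises 2 and protease rises 9 to 13. Scarb2 had 3 rises and 1 fall among 7, Ctsc 4 and 1 among 9, and Atp6v0d2 4 and 0 among 6. Tfeb had 1 rise and 4 falls among 10, and Gnptab 2 and 4 among 8. Over the set 64 of 158 regions passed (40.5%, against 51.0%), 39 higher (24.7%, against 25.7%) and 25 lower (15.8%, against 25.3%).

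The Scarb2 region at 18.7 kb showed the widest difference, with 8.95 and 9.16 normalized tags in blood and 86.3 and 123.7 in Kupffer cells (log2 fold change 3.77 ± 0.31, adjusted p = 8.79e-17). The 24 h and 48 h libraries lay between, at 15.4 and 28.5 with no peak in 1 library, and at 13.9 and 49.1. Other Scarb2 regions rose by 2.28 (19.5 kb upstream, adjusted p = 1.09e-08) and 1.84 (38.4 kb into the gene, adjusted p = 7.9e-06). Rises at further genes included those at Npc2 (1.83), Ctsc (1.81), Ctsb (1.80), 27.7 kb upstream of Ctsl (1.62), Ctsd (1.58) and Atp6v0d2 (1.53), with adjusted p from 4.83e-09 (Ctsd) to 2.19e-05 (Ctsl). In Kupffer cells the Ctsb region measured 65.4 and 87.2 and the Ctsc region 83.4 and 98.7. In blood they had measured below 40 in every library.

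The start sites of Tfeb, Mitf and Gnptab had the largest falls among start sites of the set, while both Tfe3 start-site regions did not pass (-0.11 and -0.15). That of Tfeb at chr17:47736850-47737141 measured 311.7 and 388.3 in blood, 237.8, 216.1 and 194.4 at 24 h, 170.8 and 183.4 at 48 h and 93.8 and 110.2 in Kupffer cells (log2 fold change -1.37 ± 0.16 for Kupffer cells against blood, adjusted p = 5.63e-11). That of Mitf measured 132.7 and 131.3 in Kupffer cells (-1.36 ± 0.15, adjusted p = 1.86e-11), and that of Gnptab 145.0 and 139.0, from 341.0 and 528.6 in blood (-1.18 ± 0.16, adjusted p = 1.85e-09). For Tfeb the 4 groups did not overlap in this order.

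Within the gene bodies the regulators moved both ways. The Tfeb region that had fallen at 24 h measured 16.1 and 21.1 in Kupffer cells (-1.93 ± 0.28, adjusted p = 2.33e-08), and another fell by 1.12 (adjusted p = 0.00018), while a region 22.3 kb from the start rose by 0.96 (adjusted p = 0.00277). At Mitf a region 59.7 kb from the start measured 36.6 and 31.0 in blood and 55.9 and 69.0 in Kupffer cells (1.26 ± 0.27, adjusted p = 9.37e-05), and another rose by 0.98 (adjusted p = 0.0107). None of 3 Tfe3 regions passed.

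Start sites of the set rose at 6 of 36 (16.7%, against 22.8%) and fell at 8 (22.2%, against 30% of all start sites). Rises were at Mcoln1 (1.08), Gla (0.88), Galc (0.63), Naglu (0.50), Ctsl (0.50) and Gusb (0.36), and falls besides the regulators and Gnptab at Man2b1 (-0.60), Ctsc (-0.57), Lgmn (-0.47) and Neu1 (-0.43), with adjusted p up to 0.0455 (Gusb). With TCACGTG 3 of 7 start sites of the set rose, and without it 3 of 29. Over the genome 30.9% with these letters rose, against 22.3% without. Kupffer cells had 46 of 335 regions not called in blood (13.7%, against 12.8%), of which 11 lay at Ctsc, 5 at Atp6v0d2 and 4 at Scarb2. Blood had 32 not called in Kupffer cells (9.55%, against 15.9%), with 3 each at Smpd1, Gnptab and Tfeb, and lists of equal length gave 42 and 18.

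The median region was 0.40 lower in Kupffer cells before centring, and without centring 14 regions rose and 34 fell, with pump regions at 1 and 1 and heparan sulfate regions at 0 and 0. The largest change of each of the 8 genes named by size (Scarb2, Tfeb, Npc2, Ctsc, Ctsb, Ctsl, Ctsd and Atp6v0d2) and the start sites of Gnptab, Tfeb (2 regions) and Mitf kept their calls under every alternative.

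**Figure D5:**
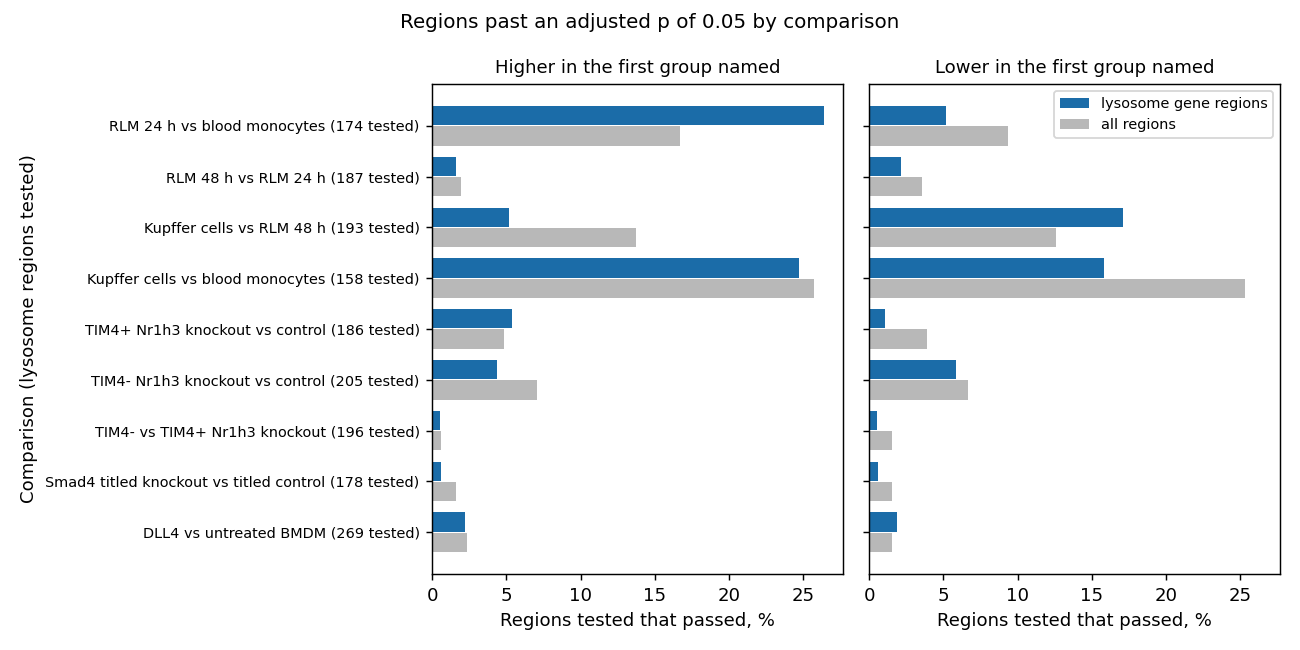
Percent of tested regions past an adjusted p of 0.05 (horizontal axis, bars from 0) that were higher (left) or lower (right) in the first group named, for lysosome gene regions and for all regions in the 9 comparisons. Lysosome bars exceed the genome's for rises from blood to 24 h (26.4% against 16.7%) and for falls from 48 h to Kupffer cells (17.1% against 12.6%), and by under 1 point for rises in TIM4+ knockouts and falls with DLL4.

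Nr1h3 encodes LXR-alpha, a nuclear receptor for oxidised cholesterol that Kupffer cells express. In TIM4+ cells few lysosome gene regions changed with the knockout: 12 of 186 passed (6.45%, against 8.78%), 10 higher (5.38%, against 4.86%) and 2 lower (1.08%, against 3.91%), with a median of 0.15, against 0.08 over all regions. Of 16 glycosidase regions 4 rose and 0 fell, with 0 to 2 rises when 1 library was left out. None of 20 regulator regions and none of 9 Gnptab regions passed. The 2 falls were at Scarb2 and Galc.

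The Scarb2 region at 18.7 kb measured 116.3 and 87.1 in controls and 46.6 and 52.6 in TIM4+ knockouts, with no overlap (-0.70 ± 0.18, adjusted p = 0.00364). The Galc region at chr12:98249658-98250022 measured 41.6 and 51.5 against 23 and 21.2 (-0.73 ± 0.25, adjusted p = 0.0438). A region in the body of Ctsh, the aminopeptidase cathepsin H, measured 59.6 and 40.9 in controls and 68.3 and 58.7 in knockouts (0.66 ± 0.20, adjusted p = 0.0169). The control and knockout libraries overlapped there before centring.

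Manba gave the largest rise, with 20.2 and 9.24 in controls and 19.1 and 24.6 in knockouts (0.93 ± 0.30, adjusted p = 0.0316). Start sites rose at 5 of 37 (13.5%, against 6.58% of all start sites) and fell at 0: Gaa (0.56), Gla (0.53), Neu1 (0.43), Naglu (0.41) and Cd68 (0.41), with adjusted p from 0.026 to 0.0493, and start-site rises numbered 0 to 4 when 1 library was left out. Gaa, Gla and Naglu are 3 of the 8 tested start sites of the set with TCACGTG, and over the genome 12.2% of start sites with these letters rose, against 6.21% without. The Gaa start site measured 64.2 and 53.5 in controls and 83.6 and 58.7 in knockouts, so its rise stands relative to a median region that was 0.23 lower in knockouts. Atp6v0d2 (0.45, adjusted p = 0.0498) and the distal Ctsb region (0.44, adjusted p = 0.0483) passed narrowly. Of 297 regions 2 had peaks only in knockouts (0.673%, against 1.06%). Controls alone had 18 (6.06%, against 7.69%), with 3 each at Lamp2 and Ctsc and 2 at Atp6v0d1, and lists of equal length gave 6 and 6.

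Without centring 0 regions rose and 1 fell, with quantile normalisation 2 rose and 3 fell, and the count was 3 without TIM4+ knockout replicate 1, 2 without control replicate 1 and 1 without control replicate 2. The Scarb2 fall failed without control replicate 1 (adjusted p = 0.124) or control replicate 2 (adjusted p = 0.0568) and held under the other alternatives.

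TIM4- knockouts were set against the same TIM4+ controls, so genotype and TIM4 state differ together and cannot be told apart. Membrane regions fell at 6 of 28 and rose at 0, and 5 of the 6 lay at Scarb2, where 5 of 11 regions fell and 0 rose. Membrane falls numbered 2 to 5 when 1 library was left out. Over the set 21 of 205 regions passed (10.2%, against 13.7%), 9 higher (4.39%, against 7.03%) and 12 lower (5.85%, against 6.68%). The median was 0.12, against 0.08 over all regions. Proteases gave 2 rises and 4 falls among 63, lipid genes 3 and 2 among 37, and glycosidases 2 and 0 among 18. The start site of 1 of 8 monocyte markers had a peak in these knockouts, and none had in the controls, a difference whose part in these results was not tested.

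At Scarb2 the region at 38.4 kb measured 34.1 and 40.9 in controls and 19.4 and 24.5 in TIM4- knockouts (-1.15 ± 0.27, adjusted p = 0.000532). That at 18.7 kb measured 61.3 and 73.0 (-0.98, adjusted p = 2.51e-06), below both controls. Regions at 40.0 kb (-0.81), 64.0 kb (-0.77) and 5.8 kb upstream (-0.74) also fell. The start site itself, with 289.2 and 203.3 in controls and 416.5 and 344.8 in TIM4- knockouts, did not pass.

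Legumain and galactosylceramidase held the other large falls. A region in the body of Lgmn, chr12:102394456-102394740, measured 52.1 and 27.7 in controls and 17.7 and 20.2 in knockouts (-1.37 ± 0.27, adjusted p = 3.02e-05). The Galc region that also fell in TIM4+ cells measured 29.5 and 21.8 (-1.24 ± 0.25, adjusted p = 3.36e-05). A region 4558 bp from Ctsb fell from 60.7 and 48.2 to 33.0 and 40.3 (-0.96 ± 0.22, adjusted p = 0.000544). In all 3 the TIM4- libraries lay below both controls. A region 7.4 kb upstream of Ctsc had 35.9 and 32.3 in controls and 27.1 and 20.2 in knockouts (-0.92, adjusted p = 0.00835), and 1 upstream of Lamp2 had 12.1 and 17.2 against 10.0 and 9.26 (-0.94, adjusted p = 0.0452).

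The clearest rise was in the body of Ctsh at chr9:90067410-90067709, with 59.6 and 40.9 in controls and 136.1 and 132.9 in TIM4- knockouts (1.03 ± 0.18, adjusted p = 8.11e-07). A region 5.4 kb upstream of Ctss, cathepsin S, rose by 0.62 (adjusted p = 0.0196), and 1 of 10 Tfeb regions, in the gene body, rose by 0.53 (adjusted p = 0.011). Start sites rose at Smpd1 (0.53), Gnptab (0.45), Npc2 (0.39) and Gusb (0.38), that is 4 of 39 (10.3%, against 8.07%), and none fell (against 1.61%). Unlike in TIM4+ knockouts, 0 of 8 start sites of the set with TCACGTG rose, and 4 of 31 without it. Over the genome 4.9% of start sites with these letters rose, against 8.27% without. Of 319 regions 10 had peaks only in TIM4- knockouts (3.13%, against 6.60%), with 2 each at Ctsb and Lgmn. Controls alone had 11 (3.45%, against 3.50%), with 2 each at Lamp2 and Ctsc, and lists of equal length gave 6 and 7.

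The median region was 0.48 higher in TIM4- knockouts before centring, and without centring 64 regions rose and 3 fell (membrane 7 and 1), while quantile normalisation gave 1 and 12. Lgmn and Ctsh kept their calls under every alternative, and the count was 12 without TIM4- knockout replicate 1 and 8 without control replicate 2, without which the Galc region and the Scarb2 region at 38.4 kb failed.

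TIM4- against TIM4+ knockouts gave 2 calls among 196 regions (1.02%, against 2.11%), 1 higher (0.51%, against 0.607%) and 1 lower (0.51%, against 1.5%). The set's median was -0.09, against -0.03 over all regions. The Ctsc region 7.4 kb upstream, chr7:88270541-88270876, measured 27.1 and 20.2 in TIM4- and 22.3 and 34.1 in TIM4+ knockouts (-0.98 ± 0.28, adjusted p = 0.0335). Its libraries overlapped before centring. A region in the body of Gnptab, chr10:88417770-88418013, measured 116.1 and 124.7 in TIM4- and 37.7 and 53.9 in TIM4+ knockouts, against 83.9 and 67.3 in controls (0.65 ± 0.19, adjusted p = 0.038).

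TIM4- knockouts alone had peaks in 17 of 300 regions (5.67%, against 10.9%), with 3 at Mitf and 2 each at Ctsb and Ctsc, and TIM4+ knockouts alone in 0 (against 0.559%). Lists of equal length gave 1 and 1. The median region was 0.72 higher in TIM4- cells before centring, and without centring 135 regions rose and 0 fell, while quantile normalisation gave 0 and 0. The count was 1 without TIM4- replicate 1, 0 without TIM4- replicate 2, 0 without TIM4+ replicate 1 and 3 without TIM4+ replicate 2.

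Smad4 carries signals of the TGF-beta and BMP family to the nucleus. Between cells titled Smad4 knockout and titled control 2 of 178 regions passed (1.12%, against 3.07%), 1 higher (0.562%, against 1.57%) and 1 lower (0.562%, against 1.5%), with a median of 0.08, against 0.07 over all regions. The fall was at Hgsnat, an acetyltransferase of heparan sulfate breakdown, in the gene body at chr8:25973070-25973340. It measured 82.4 and 95.7 in titled controls and 20.1 and 33.5 in titled knockouts, with no overlap (-1.40 ± 0.20, adjusted p = 2.07e-07). The same region measured 93.8 and 128.5 in PBS Kupffer cells and 171.8 and 124.8 in Nr1h3 controls, and it had no peak in any library of blood monocytes, RLM, BMDM or either Nr1h3 knockout group. That pattern over the other groups was singled out after its values were seen, and it was not tested.

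The rise was 16.9 kb upstream of Psap, with 82.6 and 100.5 in titled knockouts and 75.7 and 75.4 in titled controls (0.60 ± 0.16, adjusted p = 0.0155). None of 24 regulator, 51 protease, 24 membrane or 15 pump regions passed. Of 304 regions 1 had peaks only in titled knockouts (0.329%, against 1.24%). Titled controls alone had 17 (5.59%, against 6.97%), with 3 each at Ctsc and Atp6v0d2 and 2 at Atp6v0d1, and lists of equal length gave 7 and 8. The Hgsnat call held under every alternative. The Psap call was lost without centring, where 0 rose and 1 fell, and the count was 1 without titled control replicate 2.

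DLL4 activates Notch receptors and was given to cultured BMDM. Lysosome gene regions changed little: 11 of 269 passed (4.09%, against 3.88%), 6 higher (2.23%, against 2.36%) and 5 lower (1.86%, against 1.52%), with a median of 0.01, against 0.03 over all regions. Of 43 regulator regions 0 rose and 2 fell, of 29 membrane regions 2 rose and 0 fell, and of 71 protease regions 2 rose and 2 fell. At Mitf a gene-body region measured 33.2 and 35.9 untreated and 25.4 and 12.3 with DLL4 (-0.96, adjusted p = 0.0378). At Tfe3 a region measured 102.6 and 85.8 untreated and 71.2 and 60.9 with DLL4 (-0.54, adjusted p = 0.0495), and it had no peak outside BMDM.

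The falls with the smallest adjusted p were at Ctsd and Ppt1, the palmitoyl-protein thioesterase gene. A region 2.5 kb upstream of Ctsd measured 163.4 and 142.8 untreated and 110.5 and 89.6 with DLL4 (-0.65 ± 0.14, adjusted p = 0.00181). The Ppt1 region, 2.4 kb into the gene, measured 128.4 and 117.4 against 77.0 and 78.0 (-0.69 ± 0.16, adjusted p = 0.00233). Both fell without overlap.

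Rises included those at Scarb2 19.5 kb upstream (25.8 and 24.5 untreated, 41.4 and 53.4 with DLL4; 0.84, adjusted p = 0.0331), at Ctsk (21.5 and 24.5 against 37.8 and 47.9; 0.83, adjusted p = 0.0483) and at Ctsh (40.5 and 31.5 against 54.5 and 65.7; 0.69, adjusted p = 0.0466). The region beside Atp6v0d2 that rose from 24 h to 48 h measured 98.9 and 94.6 untreated and 145.3 and 143.0 with DLL4 (0.54, adjusted p = 0.0166). The Mcoln1 start site rose from 93.4 and 98.1 to 138.8 and 139.6 (0.50, adjusted p = 0.0303) and was the only one of 40 start sites to pass. The DLL4 libraries lay above the untreated ones at each of these 5 regions, which were named because they passed the test. Over the set, the 2 groups did not overlap at 108 of 269 regions, in either direction. The share over all regions was not computed, so this count is no result about the set. DLL4 libraries alone had peaks in 6 of 390 regions (1.54%, against 2.10%) and untreated libraries alone in 5 (1.28%, against 2.00%), with no gene at 2 or more and 3 and 4 with lists of equal length. None of the changes named by size held under every alternative. The count was 4 without DLL4 replicate 1, 2 without DLL4 replicate 2, 0 without untreated replicate 1 and 3 without untreated replicate 2, and it was 4 rises and 2 falls without centring and 0 and 2 with quantile normalisation.

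The remaining genes of the pathway, 74 further lysosome genes, were counted beside the set. From blood to 24 h 51 of 227 regions rose and 15 fell (29.1% called, against 26.0% of all regions). The largest changes were at the pump subunit gene Atp6v1f (2.63), the acid phosphatase gene Acp2 (2.23) and the phospholipase gene Pla2g15 (1.48). From 24 h to 48 h 2 of 251 rose and 8 fell (3.98% called, against 5.44%), with Slc36a1 (-1.17), Fnip2 (1.10) and Slc38a9 (1.08) changing most. Between 48 h and Kupffer cells 30 of 256 rose and 35 fell (25.4%, against 26.4%), with Lyst, a regulator of lysosome size, at -2.76 (adjusted p = 1.83e-12), the amino acid sensor gene Slc38a9 at 2.55 and Atp6v0a2 at 1.95. Between blood and Kupffer cells 41 of 196 rose and 58 fell (50.5%, against 51.0%), led by Lyst (-3.33), Atp6v1f (2.74) and the sorting receptor gene Sort1 (-2.72).

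In the Nr1h3 knockouts the largest changes on the list exceeded those of the 46 genes. A region at Plekhm1, an adaptor for lysosome fusion, fell by 3.14 in TIM4+ knockouts (adjusted p = 1.75e-37) and by 1.90 in TIM4- knockouts (adjusted p = 9.18e-08). Regions at Sort1 rose by 1.95 and 2.19 and regions at Uvrag fell by 1.49 and 1.67, respectively. Both contrasts share the control libraries. Over the list 15 of 244 regions rose and 14 fell in TIM4+ cells (11.9% called, against 8.78%), and 12 of 281 rose and 26 fell in TIM4- cells (13.5%, against 13.7%). Between TIM4- and TIM4+ knockouts a region at Igf2r, the mannose 6-phosphate receptor gene, changed by -1.16. With titled Smad4 knockout 3 of 235 rose and 3 fell (2.55%, against 3.07%), with Sort1 at 1.60, Atp6v0a1 at 1.58 and Plekhm1 at -1.29. With DLL4 9 of 386 rose and 5 fell (3.63%, against 3.88%), with Acp5 at 1.3, Rptor at -1.18 and Ctso at 1.11.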

How the data were processed

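ATAC-seq peak lists of 23 libraries in 11 groups were analysed. Reads were aligned with Bowtie2 to mm10 and processed with HOMER, per the submitters' processing notes, whose versions are not given in the sources used here. Per the file headers, the authors called peaks in each library with findPeaks in factor style (peak size 200 bp, FDR 0.001, 4-fold over the local 10 kb, local p 1.0e-04, no input). The deposited signal is the normalized tag count, scaled to 10 M tags per the file headers. The deposited findPeaks score ranked peaks in shortening lists to equal length, to 48720 each. A threshold of 8 to 11 tags per peak bounds what could be called.

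Peaks on chromosomes 1 to 19 and X overlapping by 1 bp were merged over libraries, and each region took the strongest peak of a library. Each region went to the closest gene body among RefSeq (GRCm38.p6) protein-coding genes, so the gene named need not be the one regulated. Tests used limma 3.58.1 (trend) in R 4.3.3 on log2(signal + 1), centred on the library median, with Benjamini-Hochberg adjustment over all regions tested and a threshold of 0.05. Only the 2 groups compared entered a fit. Before centring the groups did not overlap at many set regions, from 67 of 186 for TIM4+ knockouts to 174 of 196 between the knockouts. The share over all regions was not computed for any comparison. Lack of overlap at a called region is thus no separate support for the call. The code was tested on simulated data. Signal per library is peak-based, so no count model was used.

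The genes, lists and rules were chosen with earlier results of these data known. Named were, per comparison, the 8 members with the largest called change, start sites past the threshold, up to 3 members with most regions found in 1 group alone, Tfeb, Tfe3 and Mitf, the 5 genes with most, fewest and widest range of regions, and 3 of the other lysosome genes. Alternatives were no centring, quantile normalisation, a pseudocount of 5, a mean signal of at least 20, an overlap of 100 bp, lists of equal length, assignment within 10 kb, ties, all libraries of an experiment and each library left out. One result among the other lysosome genes is not reported here.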

Additional observations from a re-analysis of the deposited data

Results flagged for a closer look

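At 2 regions the change with Nr1h3 knockout differed between TIM4- and TIM4+ cells. Because both knockout groups share the control libraries, the difference equals the direct comparison of the knockouts by limma. For the Gnptab gene-body region the knockout effect in TIM4- cells minus that in TIM4+ cells was 0.65 on the log2 scale (adjusted p = 0.038). For the region 7.4 kb upstream of Ctsc it was -0.98 (adjusted p = 0.0335). Neither call held under quantile normalisation (adjusted p = 0.0785 at Gnptab and 0.087 at Ctsc). The Ctsc call was lost whichever of the 4 libraries was left out, and of these 4 fits the Gnptab call held only in that without TIM4+ replicate 2. Each TIM4- library exceeded each TIM4+ library at Gnptab, and the libraries overlapped at Ctsc before centring. Before centring the 2 groups did not overlap at 174 of 196 regions of the set, and the median region was 0.72 higher in TIM4- cells. Separation of the libraries therefore gives no support to the Gnptab call.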

How the results depend on the processing

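The number of changed lysosome gene regions moved with centring and with single libraries. Without centring the counts were 23 for 24 h against blood, 4 for 48 h against 24 h, 71 for Kupffer cells against 48 h, 1 and 67 for TIM4+ and TIM4- knockouts against controls, 135 between the knockouts, 1 for Smad4 and 6 for DLL4. Quantile normalisation gave 5, 13 and 0 for the 3 Nr1h3 comparisons in that order, 1 for Smad4 and 2 for DLL4. Assignment within 10 kb gave 4 for 48 h against 24 h and 1 for Smad4. Between the knockouts, lists of equal length, a mean signal of at least 20 and an overlap of 100 bp gave 1 each, and fitting all Nr1h3 libraries gave 7 in TIM4+ cells. Leaving out 1 library, with a lone sample assumed to vary like the other group, gave 28 to 68 for 24 h against blood, 0 to 11 for 48 h against 24 h, 12 to 50 for Kupffer cells against 48 h and 44 to 60 against blood. It gave 1 to 12 in TIM4+ and 8 to 19 in TIM4- knockouts, 0 to 3 between them, 1 to 3 for Smad4 and 0 to 4 for DLL4. For the named regions, 759 of 876 values under other settings kept direction and call, 116 lost the call and 1 turned, the Gusb start site in Kupffer cells against blood without centring (-0.0356). Of 468 values without 1 library, 175 lost the call. The causes were not tested.

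Replicate numbers are shared in the Nr1h3 and BMDM groups. Deviations of same-numbered libraries correlated at 0.01, 0.00, 0.06 and -0.04, so the numbers were not taken as pairs. With a replicate block the counts were 17 in TIM4+ and 25 in TIM4- knockouts, 2 between them and 8 for DLL4.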
